A study of Mus musculus with 20 samples.

Results

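Transcript levels were compared between mouse pre-B cell lines in which NF-kB was blocked and lines in which it was not, both deficient in the nuclease Artemis. The series holds 20 arrays, and the comparison uses 6 of them, 3 in each group, taken by their source labels, with all 44200 probe sets of the table. The blocked lines express a dominant negative IkB in addition to lacking Artemis, and are called IkB-DN lines here. The lines they are set against lack Artemis alone. All 6 samples are B cell precursors transformed by the v-abl oncogene and were treated with 3 uM STI571 (imatinib, an inhibitor of the v-abl kinase) for 48 hours. The 3 further groups of lines with the same transformation and treatment share the statistical fit: lines lacking both Artemis and the kinase ATM (2 samples, each on 2 arrays), wild type lines (3 samples) and RAG-2-deficient lines (3 samples). Bone marrow pre-B cells with an IgH transgene, from Artemis-deficient mice (2 samples) and RAG-1-deficient mice (2 samples), were measured apart. The sources used here do not say which IkB the construct encodes, how it was introduced, which line it was put into or whether the lines without it carried an empty vector. The Artemis-deficient samples carry different titles, and the sex-linked transcripts below set replicate 1 apart from the others, so that group holds more than 1 line. For the 3 IkB-DN samples the sources do not say how far they are independent, so the spread within that group may be technical, and p values measure only the spread between these samples.

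In resting cells NF-kB dimers are held in the cytoplasm by IkB proteins. Upstream signals, among them the ATM kinase activated by DNA breaks, lead to phosphorylation and destruction of IkB, and the freed dimers enter the nucleus and bind their sites in promoters and enhancers. A dominant negative IkB cannot be destroyed in this way and keeps the dimers bound. Several genes of the pathway are themselves targets, including those of IkB proteins and of NF-kB subunits, so their transcript levels are a common readout of its activity. In v-abl-transformed pre-B cells STI571 stops the cycle and induces the RAG recombinase, which cuts antigen receptor genes, and without Artemis the hairpin ends of these cuts are not opened.

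Levels are given as log2(signal + 6), where 6 is the pseudocount. The median signals of the 6 arrays were 26.9 to 27.7, a level of 5.04 to 5.07 on this scale, and 6546 to 6640 of the cells of an array were empty. Of the probe sets, 21921 reached the median of their array in at least 2 line samples and were kept. A change is the difference of group means, IkB-DN minus Artemis-deficient, with its standard error (SE), and a probe set was called when limma's p, adjusted by Benjamini-Hochberg over all probe sets tested, was below 0.05. Samples stood apart in several ways before any gene was considered. Over the kept probe sets the 3 IkB-DN samples correlated with each other at 0.976 to 0.983, against 0.982 and 0.984 for repeat arrays of the same Artemis- and ATM-deficient sample, whereas the Artemis-deficient samples correlated with each other at 0.916 to 0.947. Artemis-deficient replicate 3 was the most like the IkB-DN samples (0.939 to 0.944), followed by replicate 2 (0.910 to 0.920) and replicate 1 (0.894 to 0.901). These correlations run across probe sets of the same arrays and are not independent measurements. In 205 probe sets Artemis-deficient replicate 3 lay at least 2 log2 units from both other Artemis-deficient samples, and in 140 of them (68.3%) all 3 IkB-DN samples lay on its side. The same share was 20.5% of 73 probe sets for replicate 2 and 2.41% of 83 for replicate 1. Xist, transcribed from the inactive X chromosome, was at 4.61, 4.15 and 4.26 in the IkB-DN samples and at 11.90, 4.52 and 4.56 in the Artemis-deficient samples. The Y-linked Kdm5d was at 7.77, 8.04 and 8.11 in the IkB-DN samples and at 2.62, 8.18 and 7.88 in the Artemis-deficient samples, so replicate 1 alone carried the female pattern. A difference between the groups that came with the origin of the lines and one that came with the block cannot be told apart in any gene. This holds where replicate 3 sides with the IkB-DN samples and also where it sides with the other Artemis-deficient samples.

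**Figure D1:**
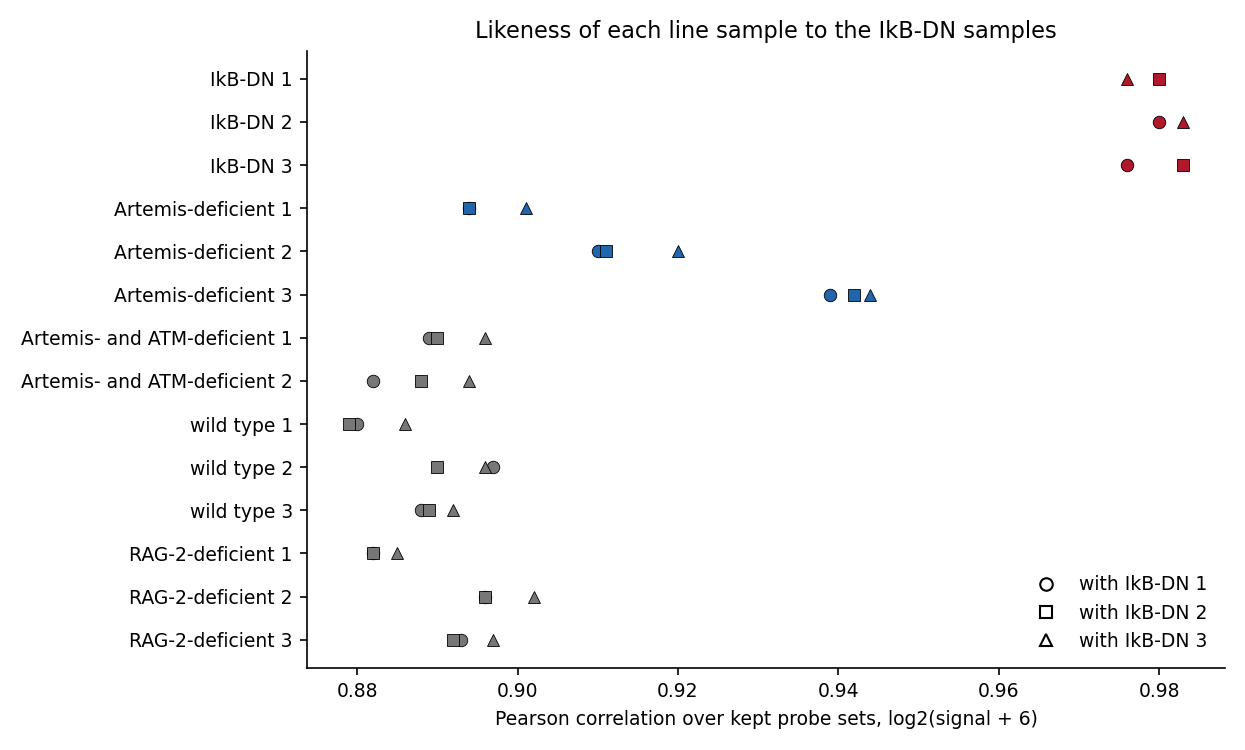
Pearson correlation over the kept probe sets, on the log2(signal + 6) scale, of each line sample (rows) with each of the 3 IkB-DN samples (symbols). The IkB-DN samples correlate with each other at 0.976 to 0.983, Artemis-deficient replicate 3 follows at 0.939 to 0.944, and the samples of the other 3 groups of lines lie between 0.879 and 0.902.

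The labelled cell type was checked against its markers. Of 15 pre-B and pro-B cell markers 14 were measured and all 14 passed the filter on low values, with a mean level of 11.45 to 11.48 in the IkB-DN samples and 11.00 to 11.19 in the Artemis-deficient samples. No erythroid marker of the 5 measured passed that filter. The recombinase gene Rag1 was at 11.95, 12.14 and 11.90 in the IkB-DN samples and at 11.45, 10.95 and 11.47 in the Artemis-deficient samples, a change of 0.71 ± 0.37 (SE, adjusted p = 0.333), and Rag2 differed by 0.61 ± 0.74 (adjusted p = 0.713). Both recombinase genes were thus read well above the array median in every sample of both groups.

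Between IkB-DN and Artemis-deficient lines 439 of 21735 probe sets were called (2.02%), 223 of them higher (1.03%) and 216 lower (0.994%). In terms of genes, each read by its probe set with the highest mean level, 231 of 9797 were called (2.36%), 124 higher (1.27%) and 107 lower (1.09%). Of the called genes 153 differed by a factor of 2 or more. The median change over all genes tested was 0.006, and no chromosome stood apart, with median changes per chromosome between -0.041 and 0.036. The count rests on few samples. It was 76 without Artemis-deficient replicate 1, 242 without replicate 2 and 1064 without replicate 3, and 99, 59 and 116 without IkB-DN replicates 1, 2 and 3. With the 3 IkB-DN samples averaged and counted as 1 sample, 5 probe sets were called, all of them lower.

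Genes of the NF-kB pathway and its targets were among those that fell in the IkB-DN lines. Over 4 lists pooled (IkB family inhibitors, NF-kB subunits, feedback regulators and known targets outside the pathway), 71 genes were measured, 50 passed the filter on low values and 48 had enough values for the test. Of these 48, 11 were called lower (22.9%, against 1.09% of all genes), and 0 were called higher by limma. At an unadjusted p below 0.05, 24 were lower and 5 higher, against 973 and 993 of all 9797 genes. The median change was -0.45. The members and lists were chosen with earlier results of these data known, so these shares are not an independent test of the pathway. Each of the 4 lists gave some of the 11: Nfkbia, Nfkbie, Nfkbid, Relb, Nfkb2, Birc3, Cyld, Pim2, Cd69, Il12a and Swap70. With each gene read by its probe set with the highest mean level, leaving out IkB-DN replicate 2 left Nfkbie and Relb called. The count was 6 without IkB-DN replicate 1, 5 without IkB-DN replicate 3 and 4 without Artemis-deficient replicate 1. It was 11 without Artemis-deficient replicate 2 and 13 without Artemis-deficient replicate 3. Outside this count, a second probe set of Nfkb2 and another of Nfkbia stayed called whichever sample was left out.

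Of the 6 IkB family genes, which encode the inhibitors that hold NF-kB and related proteins that act with it in the nucleus, 3 fell and the median change was -1.70. The share called lower over all genes was 1.09%. Nfkbie, which encodes IkB epsilon, was at 8.06, 7.84 and 7.97 in the IkB-DN samples, against 10.28, 9.97 and 10.28 in the Artemis-deficient samples. The groups were far apart, with each group spread over a narrow range. Its change was -2.22 ± 0.17 (SE, adjusted p = 0.00012), 0.214 times the Artemis-deficient level, and its second probe set changed by -2.03. Nfkbie stayed called in all 16 alternative analyses, with changes between -2.33 and -2.11.

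Nfkbid, which encodes the nuclear protein IkBNS, was at 5.94, 5.54 and 5.79 in the IkB-DN samples and at 8.25, 7.69 and 8.29 in the Artemis-deficient samples, a change of -2.32 ± 0.36 (adjusted p = 0.00903). Nfkbia, which encodes IkB alpha, the classical inhibitor, was at 11.03, 10.81 and 11.13 in the IkB-DN samples, against 12.22, 12.01 and 12.26 in the Artemis-deficient samples. It changed by -1.17 ± 0.18 (adjusted p = 0.0104), and all 5 of its probe sets were called lower, by -1.47 to -0.94. Whether transcripts of the construct itself add to any of these readings was not tested. On the probe sets whose levels are given here, the calls of Nfkbid and Nfkbia were lost without Artemis-deficient replicate 1 and without IkB-DN replicate 2. Another Nfkbia probe set, which changed by -1.45 (adjusted p = 0.00643 by limma), stayed called whichever of the 6 samples was left out. Nfkbib, which encodes IkB beta, differed by -0.55 ± 0.15 (adjusted p = 0.0832), and Nfkbiz by 0.13 ± 0.27 (adjusted p = 0.835). Bcl3, a coactivator with an IkB-like fold, was read in only 2 IkB-DN samples, at 2.65 and 3.39, against 6.41, 4.12 and 6.81 in the Artemis-deficient samples, and its change of -2.76 ± 0.77 was not called (adjusted p = 0.112).

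Among the NF-kB subunits the genes of the alternative pathway fell. Relb, which encodes the subunit that pairs with p52, was at 4.48, 4.62 and 4.70 in the IkB-DN samples, below the median of the arrays, and at 7.29, 6.99 and 7.18 in the Artemis-deficient samples. It changed by -2.55 ± 0.18 (adjusted p = 0.00012), to 0.17 times the Artemis-deficient level, and like Nfkbie it stayed called in all 16 alternatives (-2.84 to -1.74). Nfkb2, which encodes p100, the precursor of p52, changed on its brighter probe set by -0.82 ± 0.17 (adjusted p = 0.0294), a call held in only 7 of 16 alternatives and lost without Artemis-deficient replicate 1 and without each IkB-DN replicate. Its other probe set read 4.38, 4.09 and 4.19 in the IkB-DN samples, against 7.71, 7.56 and 7.16 in the Artemis-deficient samples, a change of -3.26 ± 0.25 (adjusted p = 0.00012). That probe set stayed called whichever of the 6 samples was left out. The 2 probe sets of Nfkb2 thus differ widely in size of change and share its direction. The subunits of the classical pathway did not pass the test: Rela (p65) differed by 0.12 ± 0.14 (adjusted p = 0.704) and Rel (c-Rel) by -0.14 ± 0.34 (adjusted p = 0.865). Of the 5 subunit genes 4 were measured.

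Of 17 tested kinases and adaptors that lead to IkB phosphorylation, limma called 0, with 1 lower and 0 higher at an unadjusted p below 0.05, and the median change was -0.06. The IkB kinase subunit genes Ikbkb and Ikbkg, chosen after their values were seen, differed by -0.01 ± 0.16 and 0.06 ± 0.11. The smallest adjusted p of this list was that of Map3k7, the TAK1 kinase, at 8.06, 7.95 and 8.22 in the IkB-DN samples and 8.49, 8.79 and 8.37 in the Artemis-deficient samples (-0.48 ± 0.17, adjusted p = 0.163). With each gene read by 1 probe set, the changes of all 17 lay between -0.48 and 0.21. Over the 6 tested probe sets of Map3k7 the changes ran from -1.31 to -0.37, and none was called.

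Of the feedback regulators, proteins that NF-kB induces and that then dampen its upstream signalling, 2 of 10 tested fell, against 1.09% of all genes. Birc3, the ubiquitin ligase cIAP2, was at 9.77, 9.57 and 9.55 in the IkB-DN samples and at 10.63, 10.43 and 11.26 in the Artemis-deficient samples (-1.14 ± 0.20, adjusted p = 0.0162). Cyld, which removes ubiquitin chains, was at 7.42, 7.27 and 7.45, against 8.44, 8.05 and 8.26 in the Artemis-deficient samples (-0.87 ± 0.17, adjusted p = 0.0261). It was called on 1 of its 4 probe sets, and another, near the bottom of the scale, differed by 0.32. Both calls were lost without Artemis-deficient replicate 1 and without each of the IkB-DN replicates. Tnfaip3, the A20 ubiquitin editor and a classical target, was at 8.37, 8.15 and 7.96 in the IkB-DN samples and at 8.85, 8.69 and 8.86 in the Artemis-deficient samples. The groups did not overlap, but the change of -0.64 ± 0.25 was not called (adjusted p = 0.197). The other 7 tested members were not called either, with changes from -0.42 (Tnip1) to 0.53 (Cflar), and Traf1 did not pass the filter on low values.

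Of 28 tested NF-kB targets outside the pathway 4 fell, against 1.09% of all genes. Of the 28 changes 18 were negative, against 4814 of 9797 over all genes, and the median was -0.45. Pim2, a survival kinase, showed the widest gap: it was at 6.98, 6.34 and 6.36 in the IkB-DN samples and at 9.34, 9.98 and 10.62 in the Artemis-deficient samples, a change of -3.42 ± 0.55 (adjusted p = 0.0114), to 0.0932 times the Artemis-deficient level. Cd69, a surface protein that retains lymphocytes in tissue, was at 7.94, 7.67 and 7.77 in the IkB-DN samples and at 9.58, 9.40 and 10.30 in the Artemis-deficient samples (-1.97 ± 0.35, adjusted p = 0.0165). Both genes were highest in Artemis-deficient replicate 3, the sample most like the IkB-DN samples overall.

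Il12a, which encodes the p35 subunit of interleukin 12, was at 8.26, 8.36 and 8.58 in the IkB-DN samples and at 10.09, 10.19 and 10.21 in the Artemis-deficient samples (-1.76 ± 0.33, adjusted p = 0.0218). Swap70, which links signalling to the actin cytoskeleton in migrating B cells, was at 7.36, 7.14 and 7.36, against 8.46, 8.77 and 8.64 in the Artemis-deficient samples (-1.33 ± 0.21, adjusted p = 0.011), and both of its probe sets were called. None of these values overlapped between the groups, which was true of all 231 called genes and so adds nothing to the calls. The Swap70 call was lost without IkB-DN replicate 2, that of Pim2 without IkB-DN replicates 2 and 3, and those of Cd69 and Il12a without Artemis-deficient replicate 1 and without each IkB-DN replicate, that of Il12a also without Artemis-deficient replicate 2.

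Other well known targets did not pass the test. Icam1, an adhesion molecule, was at 8.01, 8.04 and 8.12 in the IkB-DN samples and between 7.83 and 8.14 in the Artemis-deficient samples, so the groups overlapped (0.06 ± 0.14, adjusted p = 0.851). Ltb (lymphotoxin beta) differed by -0.45 ± 0.72 and Irf4, a transcription factor of the B lineage, by -0.68 ± 0.26 (adjusted p = 0.18). Bcl2l1, which encodes the survival protein Bcl-xL, was at 7.45, 7.61 and 7.79, against 8.21, 8.11 and 8.22 in the Artemis-deficient samples, and its change of -0.56 ± 0.14 had an adjusted p of 0.057. Icam1, Ltb, Irf4 and Bcl2l1 were chosen after their values were seen.

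**Figure D2:**
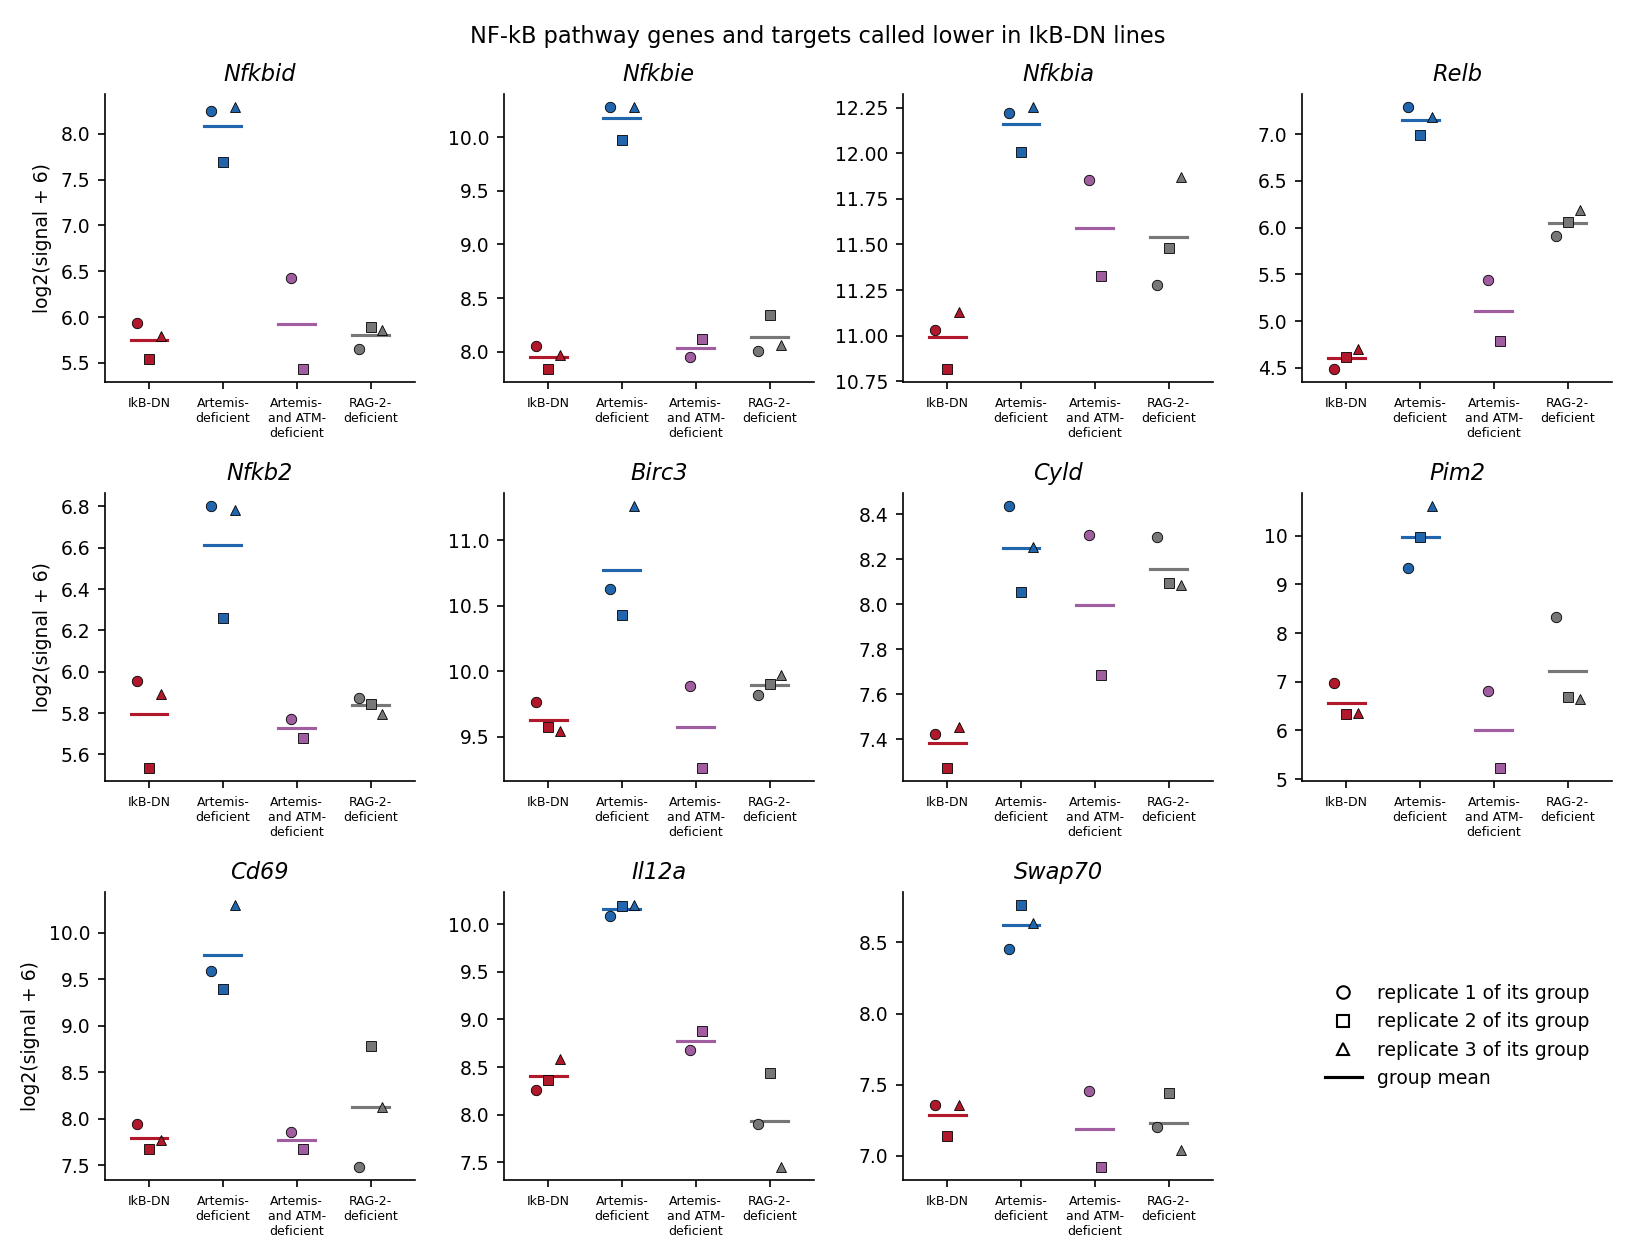
Level (log2(signal + 6), a separate axis range per gene) in each sample of 4 groups of lines for the 11 genes of the 4 NF-kB lists called lower in IkB-DN lines. Points are samples and bars are group means. In each gene the 3 IkB-DN samples lie below the 3 Artemis-deficient samples, and the groups do not overlap in any called gene. The mean gap is 2.55 for Relb and 0.82 for Nfkb2.

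The promoters of the pathway genes that fell were searched for the NF-kB consensus, on both strands and with overlaps kept, in windows of RefSeq genes (build GRCm38.p6) that run from 250 bases before to 50 after a transcript start. Windows are shown for 5 called genes with a match, since these are the genes by which the pathway reads out its own activity. Capitals mark the matches.
Nfkbia: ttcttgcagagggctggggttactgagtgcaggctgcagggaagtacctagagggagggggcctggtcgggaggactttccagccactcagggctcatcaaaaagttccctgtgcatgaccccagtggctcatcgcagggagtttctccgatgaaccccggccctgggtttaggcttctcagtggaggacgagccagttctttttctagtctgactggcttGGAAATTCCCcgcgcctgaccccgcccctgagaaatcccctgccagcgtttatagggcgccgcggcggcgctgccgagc
Nfkbie: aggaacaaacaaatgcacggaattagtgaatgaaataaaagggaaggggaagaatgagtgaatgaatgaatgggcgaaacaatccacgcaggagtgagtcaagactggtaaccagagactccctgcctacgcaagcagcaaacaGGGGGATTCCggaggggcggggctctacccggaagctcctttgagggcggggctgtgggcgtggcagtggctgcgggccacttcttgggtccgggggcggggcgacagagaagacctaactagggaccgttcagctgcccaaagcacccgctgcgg
Nfkbid: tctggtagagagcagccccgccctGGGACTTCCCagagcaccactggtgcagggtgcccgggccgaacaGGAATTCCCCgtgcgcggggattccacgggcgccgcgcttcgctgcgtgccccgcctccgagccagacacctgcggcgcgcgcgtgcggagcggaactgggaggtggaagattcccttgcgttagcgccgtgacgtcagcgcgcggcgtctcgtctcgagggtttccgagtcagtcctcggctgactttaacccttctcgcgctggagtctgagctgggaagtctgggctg
Nfkb2: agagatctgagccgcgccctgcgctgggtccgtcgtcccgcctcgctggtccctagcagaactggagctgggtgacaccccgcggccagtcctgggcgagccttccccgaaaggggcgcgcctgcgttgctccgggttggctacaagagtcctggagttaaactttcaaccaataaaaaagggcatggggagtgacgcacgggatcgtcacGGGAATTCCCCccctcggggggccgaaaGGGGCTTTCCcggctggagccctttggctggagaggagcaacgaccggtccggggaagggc
Cyld: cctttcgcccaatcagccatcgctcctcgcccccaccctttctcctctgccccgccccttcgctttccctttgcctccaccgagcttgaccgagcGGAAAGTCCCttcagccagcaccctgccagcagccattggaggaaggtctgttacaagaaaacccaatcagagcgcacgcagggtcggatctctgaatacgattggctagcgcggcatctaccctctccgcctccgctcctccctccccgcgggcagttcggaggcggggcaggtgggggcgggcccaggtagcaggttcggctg

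These windows lie at chr12:55492598-55492897 on the minus strand for Nfkbia, and on the plus strand at chr17:45555450-45555749 for Nfkbie, chr7:30422156-30422455 for Nfkbid, chr19:46304487-46304786 for Nfkb2 and chr8:88696778-88697077 for Cyld. Counted from the transcript start, the matches begin at position -29 in Nfkbia, -106 in Nfkbie, -226 and -181 in Nfkbid, -39, -38 and -11 in Nfkb2 and -155 in Cyld, the first of those of Nfkb2 on both strands. Nfkbid and Nfkb2 have further windows that are not shown. No match was found in the windows of the called genes Pim2, Birc3, Il12a and Swap70, and Relb and Cd69 were not found in the table. Matches also occurred in members that were not called or did not pass the filter, such as Bcl3, Rel, Tnfaip3, Tnip1, Ltb and Bcl2l1. By list, 4 of 5 IkB family genes with a window held a match, 2 of 3 subunit genes, 4 of 11 feedback regulators and 14 of 36 targets outside the pathway. Of the called lower genes with a window, 10 of 88 held a match in at least 1 window (11.4%), and of the called higher genes 7 of 99 (7.07%). The share was 5.87% of the 8020 tested genes with a window and 4.51% of all 32851 windows. The other genes of the 10 were Tank, Ifi30, H2-K1, Rere and Cplx2, of which Tank, Rere and Cplx2 are named here after their values were seen. A match is a stretch of letters and no evidence of binding.

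The lines labelled as lacking ATM as well and those labelled RAG-2-deficient give levels of the 11 genes in other genotypes. Rag2 itself was at 4.69, 8.03 and 8.38 in the RAG-2-deficient samples, against 8.17 to 8.50 in the Artemis-deficient samples. Whether its probe set lies in the deleted part of the gene is not known here, so this reading does not check the label. Nfkbie was at 7.95 and 8.12 in the Artemis- and ATM-deficient samples and at 8.01, 8.35 and 8.06 in the RAG-2-deficient samples, all below the 9.97 to 10.28 of the Artemis-deficient samples. In IkB-DN minus Artemis- and ATM-deficient lines, where 2.79% of genes were called lower and 4.21% higher, the 11 differed by -0.61 (Cyld) to 0.54 (Pim2), with adjusted p values from 0.0763 to 0.979. Relb was at 4.48 to 4.70 in the IkB-DN samples and at 5.91, 6.06 and 6.18 in the RAG-2-deficient samples. In IkB-DN minus RAG-2-deficient lines, where 4.58% of genes were called lower and 5.87% higher, Relb changed by -1.45 ± 0.18 (adjusted p = 0.000991) and Cyld by -0.78 (adjusted p = 0.0157). The other 9 differed by -0.67 (Pim2) to 0.47 (Il12a) and were not called. In Artemis-deficient minus RAG-2-deficient lines, where 0.327% of genes were called lower and 0.776% higher, Nfkbie differed by 2.04 (adjusted p = 0.000115), Nfkbid by 2.28 (0.00978), Il12a by 2.23 (0.00683), Swap70 by 1.39 (0.00862) and Relb by 1.10 (0.0134). Pim2 differed by 2.76 (adjusted p = 0.0376), Cd69 by 1.63 (0.0472) and Nfkb2 by 0.78 (0.0492). Cyld at 0.09 (adjusted p = 0.868), Nfkbia at 0.62 (0.146) and Birc3 at 0.88 (0.0608) were not called there. These values are those of the brightest probe set of each gene. On its other probe set Nfkb2 differed by 3.17 (adjusted p = 6.76e-05 by limma). Another probe set of Nfkbia was called at 0.68 (adjusted p = 0.0402 by limma), and the remaining ones of that gene were not. These comparisons share samples with the one between IkB-DN and Artemis-deficient lines, so their values stand side by side and none of them is a second test of it.

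Targets of p53, the transcription factor activated by DNA damage, split the Artemis-deficient samples. The mean level of 26 p53 targets with all 6 values was 7.31, 7.29 and 7.50 in the IkB-DN samples and 8.84, 8.85 and 7.40 in the Artemis-deficient samples, so that replicate 3 lay within the IkB-DN range and replicates 1 and 2 well above it. Of 27 tested targets 1 was called lower by limma, against 1.09% of all genes. At an unadjusted p below 0.05, 13 were lower, against 973 of all 9797 genes. Changes were negative in 23 targets, against 4814 of 9797 over all genes, with a median of -0.79. The called gene was Pidd1, which encodes a death domain protein, read in 2 samples of each group at 2.80 and 3.35 in IkB-DN and 6.62 and 6.61 in Artemis-deficient lines (-3.54 ± 0.42, adjusted p = 0.0126). Its empty cells were those of IkB-DN replicate 1 and Artemis-deficient replicate 3, so the call rests on Artemis-deficient replicates 1 and 2. No p53 target was called by limma when probe sets with an empty cell were left out (12 lower at an unadjusted p below 0.05) or under the filter at a signal of 100 (12 lower). With only the 2 groups compared in the fit, limma called 3 p53 targets lower, and 354 of 21735 probe sets.

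Cdkn1a, which encodes the cell cycle inhibitor p21, was at 6.61, 7.12 and 8.58 in the IkB-DN samples and at 10.66, 10.93 and 7.45 in the Artemis-deficient samples. Phlda3, a repressor of AKT signalling, was at 4.12, 4.66 and 4.61 in the IkB-DN samples and at 9.12, 9.23 and 4.20 in the Artemis-deficient samples. In both genes replicate 3 lay among the IkB-DN samples, and neither was called (adjusted p = 0.382 and 0.225). Of the 26 p53 targets, 20 were higher in both Artemis-deficient replicates 1 and 2 than in every IkB-DN sample, and 9 of these 20 were also higher in replicate 3. For the 47 NF-kB pathway genes and targets with all 6 values these numbers were 26 and 22, and for all 9637 genes 2368 and 1419. Without Artemis-deficient replicate 3 the test called 11 p53 targets lower: Aen, Bbc3, Ccng1, Dcxr, Ei24, Ercc5, Mdm2, Phlda3, Pidd1, Sesn2 and Trp53inp1. Over all probe sets that run called 576 of 21595 lower, against 216 of 21735 with all samples. The limma test called 0 p53 targets without replicate 1 (4 lower at an unadjusted p below 0.05) and 0 without replicate 2 (6 lower). These runs were added after the data were seen, and Cdkn1a and Phlda3 were chosen in the same way.

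The mean level of genes of the G2 and M phases was 5.89, 5.34 and 5.47 in the IkB-DN samples and 6.74, 6.37 and 5.29 in the Artemis-deficient samples. Of 28 tested genes, limma called 0, with 0 in either direction at an unadjusted p below 0.05, and 26 changes were negative (median -0.59), against 4814 of 9797 over all genes. Birc5, which encodes the mitotic protein survivin, was at 3.91, 3.41 and 3.99 in the IkB-DN samples and at 6.48, 5.41 and 4.19 in the Artemis-deficient samples (-1.59 ± 1.04, adjusted p = 0.445). Replicate 3 lay above all 3 IkB-DN samples in 2 of the 23 genes in which replicates 1 and 2 did. Of 24 tested genes of S phase and replication limma called 0 (0 lower and 2 higher at an unadjusted p below 0.05). Their median change was 0.38, and 18 changes were positive, against 4983 of 9797 over all genes.

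**Figure D3:**
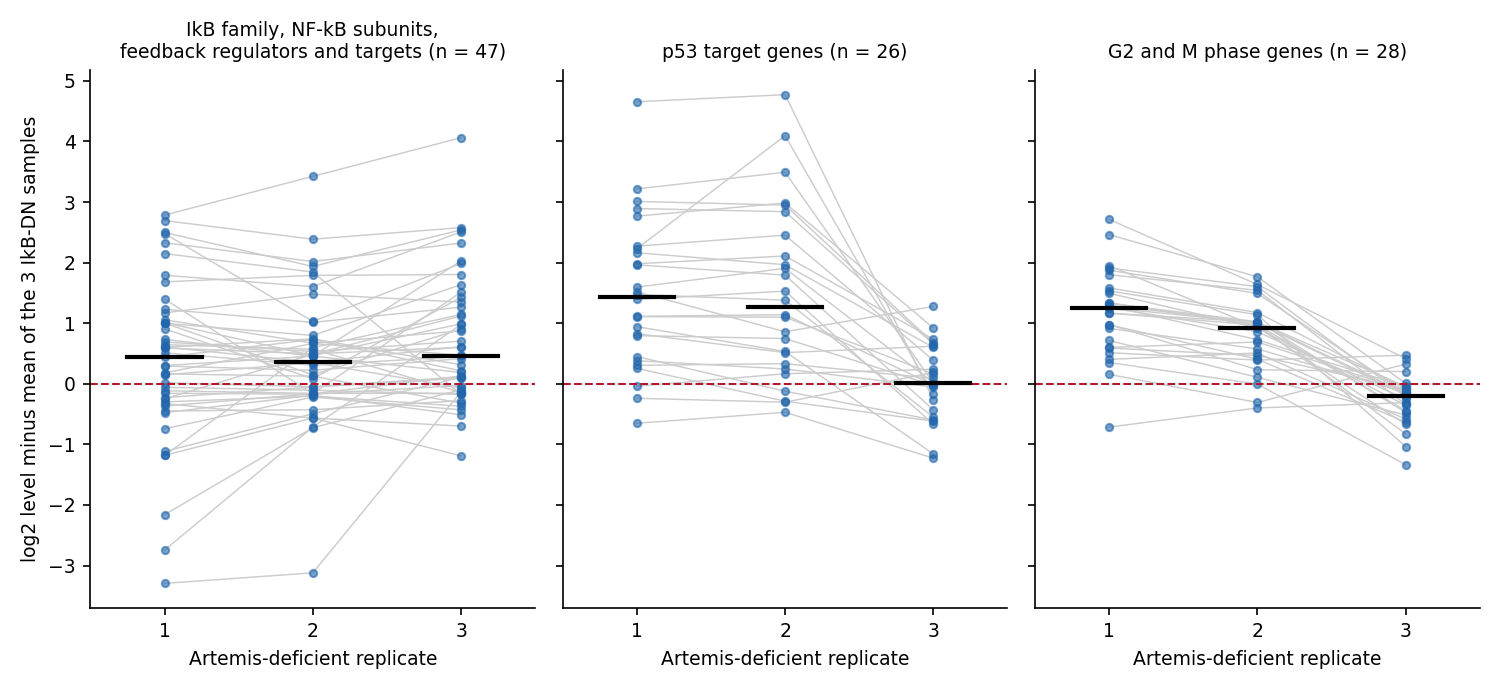
Level of each gene in each Artemis-deficient sample, less the mean of the 3 IkB-DN samples (dashed line at 0), in log2 units, for 3 lists. Points are genes, grey lines join the values of a gene and black bars are medians. The medians of the NF-kB genes are 0.44, 0.36 and 0.45 in replicates 1 to 3, those of the p53 targets 1.43, 1.26 and 0.01, and those of the G2 and M phase genes 1.25, 0.93 and -0.20.

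Single members of other lists were called, where 1.09% of all genes were called lower and 1.27% higher. Tnfsf10, the death ligand TRAIL, rose: it was between 6.92 and 7.16 in the IkB-DN samples and at 5.12, 5.21 and 4.99 in the Artemis-deficient samples (1.92 ± 0.21, adjusted p = 0.002), and stayed called whichever sample was left out. Tnfrsf19, a TNF receptor family member, was at 9.67, 9.60 and 9.66 in the IkB-DN samples and at 8.37, 8.39 and 7.76 in the Artemis-deficient samples (1.47 ± 0.31, adjusted p = 0.0324). Its call was lost whichever sample was left out. These were the only calls among 13 tested TNF family ligands and receptors.

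The cytokine gene Il18 rose by 1.67 ± 0.32 (adjusted p = 0.0229), so that of 6 tested interleukin and chemokine genes 1 rose and 1, Il12a, fell. Of 25 homing and adhesion genes Cd69 and Swap70 fell and Cd47, which protects cells from engulfment, rose by 0.97 ± 0.20 (adjusted p = 0.0307), on 1 of its 4 probe sets. The calls of Il18 and Cd47 were lost without Artemis-deficient replicates 1 and 2 and without each IkB-DN replicate. Gadd45g, a stress gene of the GADD45 family, was at 3.17, 3.11 and 3.02 in the IkB-DN samples and at 7.03, 6.79 and 5.07 in the Artemis-deficient samples (-3.20 ± 0.66, adjusted p = 0.0303), with replicate 3 nearest the IkB-DN samples.

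Small but even shifts were called in 2 abundant transcripts. H2-K1, a classical MHC class I heavy chain, was at 12.38, 12.41 and 12.46 in the IkB-DN samples and at 12.79, 12.80 and 12.80 in the Artemis-deficient samples (-0.38 ± 0.06, adjusted p = 0.0104), the call among 13 class I pathway genes. Herpud1, a component of endoplasmic reticulum degradation, was at 11.51, 11.45 and 11.55, against 11.87, 12.02 and 11.84 in the Artemis-deficient samples (-0.41 ± 0.07, adjusted p = 0.0198), the call among 20 unfolded protein response genes. Near-identical class I genes share probe sequence, so the reading of H2-K1 may include related transcripts. Both list counts read each gene by 1 probe set. Outside them, 2 probe sets of H2-D1, named after its values were seen, were called lower. They changed by -1.435 (adjusted p = 0.00826 by limma) and -0.99 (0.00404), and stayed called whichever sample was left out. In the RAG-2-deficient samples they were at 11.39, 11.46 and 11.52 and at 11.11, 11.18 and 11.25, above all samples of both groups. The H2-K1 call was lost without Artemis-deficient replicate 1 and IkB-DN replicates 1 and 2, and that of Herpud1 without each of 5 samples, all but Artemis-deficient replicate 3.

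The limma test called no member in the lists of B lineage transcription factors, pre-B receptor components, the recombinase and TdT, end joining, break signalling, homologous recombination, D cyclins and CDK inhibitors, the MYC network, the interferon response, the MHC class II pathway, IL-7 and STAT5 signalling and immediate early genes. Their median changes ran from -0.35 (MHC class II) to 0.66 (recombinase and TdT), and each list had at most 3 members on either side that passed an unadjusted p of 0.05. The nearest to a call was Cd72, a coreceptor of B cells, at 9.90, 10.21 and 10.15 in the IkB-DN samples and 10.55, 11.03 and 10.80 in the Artemis-deficient samples (-0.71 ± 0.17, adjusted p = 0.0533). Dntt, which encodes TdT, was at 11.29, 11.35 and 11.36 in the IkB-DN samples and at 8.38, 9.33 and 9.78 in the Artemis-deficient samples, and its change of 2.17 ± 0.89 did not pass the test (adjusted p = 0.216). The class II list stood out in a single sample: its mean level was 7.01, 6.82 and 6.92 in the IkB-DN samples and 6.97, 6.83 and 8.60 in the Artemis-deficient samples.

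**Figure D4:**
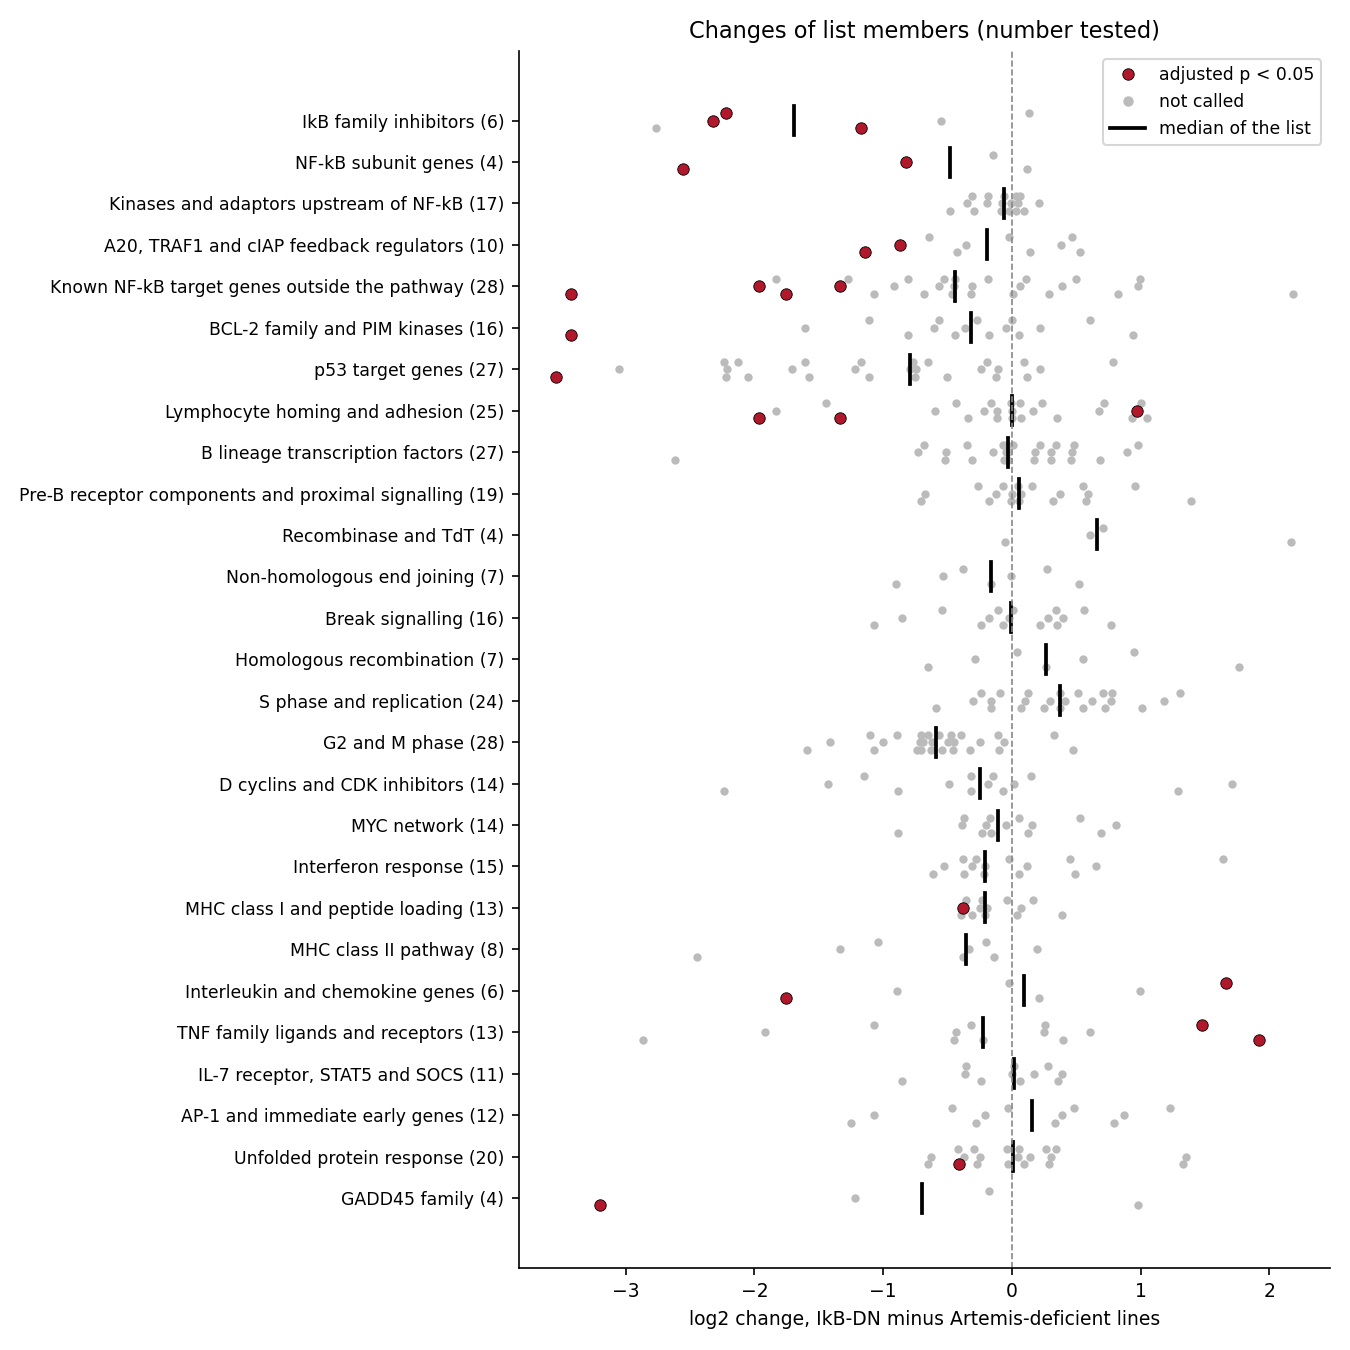
Change of each tested member of 27 gene lists, IkB-DN minus Artemis-deficient lines, in log2 units, with the number tested beside the list's name. Red points are called genes, grey points are not called and black bars are medians. The IkB family has the lowest median (-1.70), the kinases and adaptors upstream of NF-kB lie close to 0 (-0.06), and the p53 targets spread widely below 0 with 1 call.

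The largest falls lay mostly outside the NF-kB lists. Pfn2, which encodes the actin-binding protein profilin 2, was at 2.73, 3.43 and 3.73 in the IkB-DN samples and at 7.06, 9.78 and 7.05 in the Artemis-deficient samples (-4.67 ± 0.69, adjusted p = 0.00817). Nuak1, an AMPK-related kinase, changed by -3.79 ± 0.70 and Ly6d, a surface protein of B cell precursors, by -3.63 ± 0.81. Eng, which encodes the TGF beta coreceptor endoglin, was at 3.87, 3.60 and 3.67 in the IkB-DN samples and at 8.42, 8.71 and 4.67 in the Artemis-deficient samples (-3.56 ± 0.81). Its gap to replicate 3 was much smaller than to the other Artemis-deficient samples.

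Add3, which encodes the membrane skeleton protein adducin gamma, was at 3.99, 3.92 and 4.78 in the IkB-DN samples and between 6.79 and 7.01 in the Artemis-deficient samples (-2.71 ± 0.33, adjusted p = 0.00371). It was called on 2 of its 3 probe sets. Vsir, which encodes the checkpoint protein VISTA, changed by -2.59 ± 0.51, Ifi30, a lysosomal thiol reductase, by -2.50 ± 0.58, the amino acid transporter Slc6a19 by -2.41 ± 0.52, and Trim7 and Capsl by -2.58 ± 0.52 and -2.26 ± 0.43. With Pim2, Gadd45g, Relb, Nfkbid and Nfkbie these make the 15 largest falls among genes with a value in all 6 samples. Pidd1, described above, fell by 3.54 with 2 values in each group. In other lines Pfn2 was at 8.94, 8.85 and 8.66 and Add3 at 5.74, 7.27 and 6.26 in the RAG-2-deficient samples. In IkB-DN minus RAG-2-deficient lines Pfn2 changed by -5.52 and Add3 by -2.19.

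The largest rises included genes of myeloid and NK cells. Lyz2, which encodes the lysozyme of macrophages and neutrophils, was at 6.50, 6.63 and 7.04 in the IkB-DN samples and at 3.30, 3.82 and 2.85 in the Artemis-deficient samples (3.40 ± 0.44, adjusted p = 0.0049). Trem1, a receptor of myeloid cells, was at 6.86, 6.12 and 5.80, against 3.31, 2.79 and 3.34 in the Artemis-deficient samples (3.11 ± 0.37, adjusted p = 0.00286). Klrd1, the NK cell receptor subunit CD94, was at 8.73, 9.17 and 9.24, against 6.06, 2.86 and 6.32 (3.97 ± 0.78, adjusted p = 0.029). Crisp3 rose by 3.95 ± 0.56, the elastase inhibitor gene Serpinb1a by 2.31 ± 0.41 and the interferon-induced Ifitm3 by 2.61 ± 0.45. In the RAG-2-deficient samples Klrd1 was at 7.40, 8.02 and 7.60 and Lyz2 at 4.13, 3.63 and 2.75.

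The whole list of neutrophil and monocyte markers holds 14 measured genes, of which 6 passed the filter on low values. Mpo, Prtn3, S100a8, S100a9, Csf3r, Camp, Cebpa and Cd14 did not. Over the 5 tested members the mean level was 6.67, 6.33 and 6.55 in the IkB-DN samples and 5.01, 5.26 and 5.31 in the Artemis-deficient samples. Of the 5, 1 was called, Lyz2. Among the line samples Lyz2 reached the array median only in the IkB-DN samples. It thus passed the filter through the group where it is high, and it helps to raise the mean of that group. Itgam, the myeloid integrin CD11b, chosen after its values were seen, was at 8.84, 8.62 and 8.77, against 5.81, 5.77 and 7.85 in the Artemis-deficient samples (2.27 ± 0.76, adjusted p = 0.138). The part of other cells in these readings was not tested. In bulk samples fewer cells of a type and less RNA per cell cannot be told apart. Of 11 measured T and NK cell markers only Klrd1 passed the filter.

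The remaining rises were Garem1, an adaptor of growth factor signalling (4.40 ± 0.96), Emp1, an epithelial membrane protein (3.88 ± 0.83), the homeobox gene Hoxb6 (3.27 ± 0.41), Rgs8, a regulator of G protein signalling (3.04 ± 0.53), the calcium binding protein gene Cabp4 (2.95 ± 0.40), ccdc198 (2.58 ± 0.37), Tanc2, a scaffold protein gene (2.57 ± 0.35), Tmem59l (2.51 ± 0.43) and Cdr2 (2.33 ± 0.31). Garem1 was at 10.17, 9.78 and 9.69 in the IkB-DN samples and at 4.26, 4.15 and 8.02 in the Artemis-deficient samples, with replicate 3 far closer to the IkB-DN level. Uaca, named after its values were seen, rose by 4.47 ± 0.34 (adjusted p = 0.00643), more than any of these, with 2 values in the Artemis-deficient group. Of the 44 called genes that the naming rule picked, 11 stayed called on their brightest probe set whichever of the 6 samples was left out. They were Nfkbie, Relb, Pfn2 and Add3 among the falls, and Tnfsf10, Lyz2, Trem1, Hoxb6, Crisp3, Cabp4 and Cdr2 among the rises. Of these rises Lyz2, Trem1, Hoxb6 and Cabp4 passed the filter on low values only through the IkB-DN samples, the group where they are high. Among the other rises the same holds for ccdc198 and Tanc2. Outside the IkB-DN samples, Ifitm3 reached the array median only in Artemis-deficient replicate 3 (5.27). Uaca was below it in the Artemis-deficient samples, at 2.75 and 3.89, and empty in the RAG-2-deficient and the Artemis- and ATM-deficient samples.

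**Figure D5:**
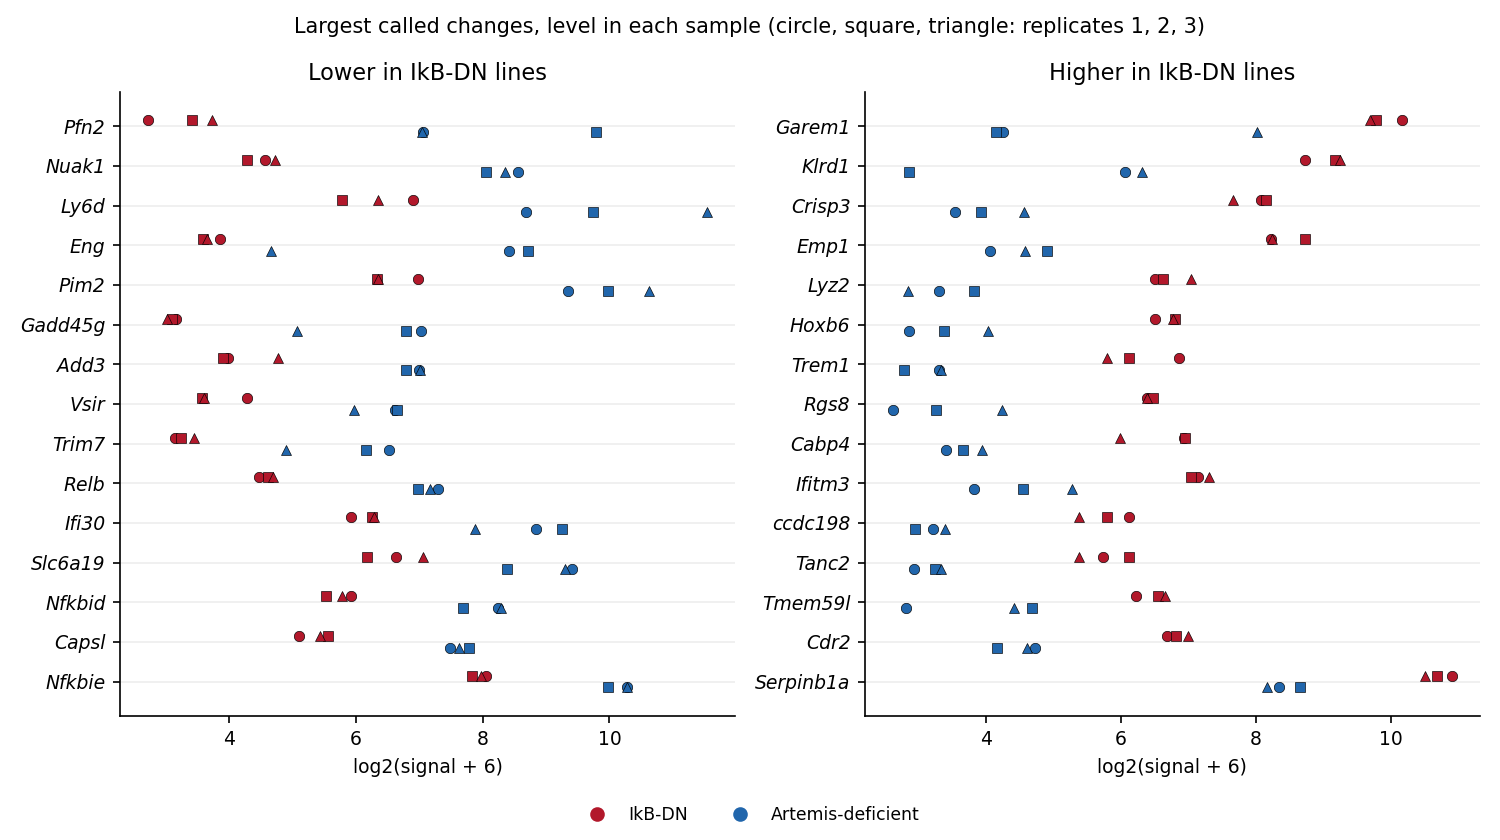
Level (log2(signal + 6)) in each sample of the 15 genes with the largest called fall (left) and the 15 with the largest called rise (right), among genes with a value in all 6 samples. Red symbols are IkB-DN samples and blue symbols Artemis-deficient samples. For Eng, Gadd45g and Garem1 the triangle of Artemis-deficient replicate 3 lies nearest the IkB-DN samples, and for Pim2 and Ly6d it lies farthest from them.

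The calls that rest least on single samples were few. Over all probe sets, 50 stayed called in every one of the 6 analyses that left out 1 sample, 22 higher and 28 lower. With the IkB-DN samples averaged to 1, a lone sample assumed to vary like the samples of the other groups, the 5 calls were Relb, Nfkbie, the second probe set of Nfkb2, Tpp1 and a probe set with no gene name. Tpp1, which encodes a lysosomal peptidase and is named after its values were seen, was at 8.24, 7.77 and 7.74 in the IkB-DN samples and at 10.00, 10.06 and 9.84 in the Artemis-deficient samples (-2.05, adjusted p = 0.00012). Relb, Nfkbie and Nfkb2 are pathway genes.

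A further analysis, added after the data were seen, kept only Artemis-deficient replicate 3 in its group, because it is the sample most like the IkB-DN samples. It called 57 probe sets, 35 higher and 22 lower, of which 36 were also called with all 3. Of the 48 NF-kB genes it called 3 lower, Relb, Nfkbie and Birc3, and 0 higher by limma (2 at an unadjusted p below 0.05). Of the p53 targets it called 0, with 0 lower at an unadjusted p below 0.05. The lone Artemis-deficient sample was again assumed to vary like the samples of the other groups. In that run 21670 probe sets were tested, and the list counts read each gene by 1 probe set. The second probe set of Nfkb2, outside them, was at 7.16 in replicate 3, against 4.38, 4.09 and 4.19 in the IkB-DN samples.

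Bone marrow pre-B cells gave a reading of the same genes in arrays that share no sample with the lines. Artemis-deficient marrow cells were set against RAG-1-deficient ones, in which 489 of 19473 probe sets were called (2.51%). Of the 107 genes called lower in IkB-DN lines, 101 were tested in marrow and 2 were called higher in Artemis-deficient marrow (1.98%, against 1.21% of genes), Nfkbie and Nfkbid. Nfkbie was at 10.40 and 10.11 in Artemis-deficient marrow and at 8.21 and 9.02 in RAG-1-deficient marrow (1.64 ± 0.27, adjusted p = 0.0346). Nfkbid was at 8.73 and 8.60, against 7.64 and 7.68 in RAG-1-deficient marrow (1.01 ± 0.18, adjusted p = 0.0405). Levels in marrow and lines are scaled apart and are not comparable.

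In marrow 3 of the 101 genes were called lower, Akap12, Cpsf2 and Capsl (2.97%, against 0.874% of genes), with Akap12 and Cpsf2 named after their values were seen. Of the 124 genes called higher in IkB-DN lines, 100 were tested in marrow and 1, Lyz2, was called higher in Artemis-deficient marrow. Relb differed by 0.71 ± 0.28 in marrow (adjusted p = 0.252) and Pim2 by 1.24 ± 0.30 (adjusted p = 0.0869). The marrow count itself hangs on single samples: it was 0 by limma without RAG-1-deficient replicate 1 (1864 probe sets at an unadjusted p below 0.05) and 1380 without Artemis-deficient replicate 2.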

How the data were processed

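RNA of 6 line samples was read on Affymetrix mouse arrays with GeneChip Operating Software, per the labels' protocols. The deposited values were taken as log10 signals, a base inferred from the values because no label names it. The sources used here give neither the summary method nor the scaling. Values were returned to signals, raised by a pseudocount (6 in lines, 11 in marrow, the 25th percentile) and taken to log2. The table holds 44200 probe sets, and 14.7% of its cells are empty and were left so. Of the probe sets 34294 name 1 gene in the platform annotation, 916 several and 8990 none. The 2 arrays of each Artemis- and ATM-deficient sample were averaged, which left 14 line samples. All 5 groups of lines entered 1 linear model (limma 3.58.1, R 4.3.3, eBayes with trend), and marrow was fitted apart. The model of the lines had 9 residual degrees of freedom for probe sets with no empty cell and fewer for others. A comparison tested the kept probe sets with at least 2 values in each of the 2 groups compared. The steps were checked on simulated data. Figures used matplotlib 3.10.9 in Python 3.11.15. Named genes are the 15 largest falls and 15 largest rises among called genes with all 6 values and no overlap, all measured IkB, subunit and feedback genes, up to 6 called members of each other of 27 lists or, with none called, up to 2 with the smallest p, and the targeted and sex-linked genes. The text marks genes picked outside this rule. The members and lists were chosen with earlier results of these data known. Alternatives changed the pseudocount, the filter, the normalization, the groups in the fit, the treatment of empty cells, the trend and the samples. Precision is limited by how few arrays there are.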

Additional observations from a re-analysis of the deposited data

How the results depend on the processing

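No paired analysis was possible because the labels give the groups compared no shared replicate numbers. Calls at the threshold were fragile: of the named genes, 131 gene values lost and 8 gained a call with 1 sample left out. Under the other settings 109 lost and 16 gained one. A change of sign was counted only where a gene was called in the main or the alternative fit, and none was found. In called genes the groups did not overlap, so leaving out 1 sample could not change their sign. Signs of genes never called were not compared. The count of probe sets called (439, 223 higher and 216 lower) ranged from 59 to 1064 with 1 sample left out, the higher ones from 27 to 488 and the lower ones from 32 to 576. It was 821 (467 higher and 354 lower) with only the 2 groups compared in the fit, 342 higher with a pseudocount of 32, 5 with the IkB-DN samples averaged (0 higher by limma, 554 at an unadjusted p below 0.05, and 5 lower) and 57 (35 higher and 22 lower) with only Artemis-deficient replicate 3. The NF-kB genes called lower, 11, ranged from 2 to 13 with 1 sample left out, with 0 to 1 higher (Plek, named after its values were seen). They were 2 with the average and 3 with only replicate 3. The p53 targets called, 1, ranged from 0 to 11 without an Artemis-deficient sample and were 0 with only replicate 3. With 1 sample left out, the other comparisons ranged from 339 to 664 (IkB-DN minus Artemis- and ATM-deficient lines, 1431 in full), from 92 to 201 (Artemis-deficient minus RAG-2-deficient lines, 249), from 837 to 1445 (IkB-DN minus RAG-2-deficient lines, 2134) and from 0 to 1380 in marrow (489, and 758 without a filter). Fewer samples enter each such fit, and other causes were not tested.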

Other observations

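Immunoglobulin transcripts were read on probe sets that were not among the lists and were chosen after their values were seen. Igkv8-30, a kappa light chain variable gene, was at 7.30, 7.17 and 7.32 in the IkB-DN samples and at 9.37, 10.14 and 10.71 in the Artemis-deficient samples, a change of -2.81 ± 0.71 that was not called (adjusted p = 0.0627). It was at 10.55 and 7.06 in the Artemis- and ATM-deficient samples and at 11.12, 9.72 and 9.94 in the RAG-2-deficient samples. The tested probe set of Iglv1, a lambda variable gene, was at 3.38, 2.90 and 3.44 in the IkB-DN samples and at 6.64, 3.92 and 7.79 in the Artemis-deficient samples (-2.88 ± 1.53, adjusted p = 0.338). On its brightest probe set Ighm, the mu heavy chain, was at 11.88, 11.91 and 12.08 in the IkB-DN samples and at 12.74, 12.92 and 12.36 in the Artemis-deficient samples (-0.72 ± 0.22, adjusted p = 0.106). A second bright Ighm probe set was at 11.11, 11.16 and 11.07, against 11.90, 12.19 and 11.62 in the Artemis-deficient samples. Its change of -0.78 ± 0.19 was not called either (adjusted p = 0.0549 by limma). The 2 remaining Ighm probe sets differed by 0.26 ± 0.16 and 0.35 ± 0.34. They were far dimmer, with IkB-DN means of 7.05 and 4.48. Of other variable genes, 2 kappa ones were at 0.22 ± 0.45 and 0.12 ± 0.43, and Igkv6-20 at -1.34 ± 0.55. Ighv14-2, a heavy chain variable gene, differed by -0.996 ± 0.508. None of these was called. Variable genes resemble each other in sequence, so a probe set may read several of them.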
